A study of Homo sapiens with 9 samples.

Results

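RUNX1 promoter peaks without BRG1 were taken from a CUT&RUN peak list of DND-41 cells as the RUNX1 peaks that overlapped an H3K4me3 peak by at least 1 bp and no BRG1 peak. They numbered 4796 of 19893 RUNX1 peaks (24.1%, exact Clopper-Pearson 95% interval 23.5 to 24.7). Of the RUNX1 peaks on H3K4me3 they made up 56.0% (54.9 to 57.1). DND-41 is an established human line of T-cell acute lymphoblastic leukemia. In CUT&RUN, an antibody brings a nuclease to its target in intact nuclei and the DNA cut free is sequenced. The RUNX1, BRG1 and H3K4me3 libraries carried no treatment label, and the H3K27ac libraries came from cells given 100 nM ACBI-1 or its vehicle DMSO. Each group was 1 library of the same line, so the spread between cultures is unknown and no test between groups was possible.

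RUNX1 is a DNA-binding factor of blood cell development that pairs with the subunit CBFB and occupies both promoters and distal elements in T-lineage cells. BRG1, the product of SMARCA4, is an ATPase of the SWI/SNF complexes, which slide and evict nucleosomes. ACBI-1 is a small molecule that causes the breakdown of BRG1, its relative SMARCA2 and PBRM1. H3K4me3 marks mainly active promoters, and H3K27ac marks active promoters and enhancers. "Promoter" here means an H3K4me3 peak, since no gene annotation of the build used (hg19) was at hand, and the sites are given by coordinates counted from 1.

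The members were chosen from the RUNX1, H3K4me3 and BRG1 lists, so their widths, positions and distances to BRG1 describe them and test nothing. H3K27ac was not used to choose them. "Without BRG1" means that no BRG1 peak was called there and not that BRG1 was absent. The lists held 12834 H3K4me3 peaks, 7445 BRG1 peaks, 90495 H3K27ac peaks in DMSO (127 Mb in all) and 52967 in ACBI (70.8 Mb). They hold positions alone, so read depth is unknown. Intervals cover counting error over peaks only, and peaks that share a promoter are not independent.

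The rule turned on 1 bp. The members nearest to a BRG1 peak lay 4 bp from it on chromosome 19 (chr19:34625480-34625697) and 5 bp from it on chromosome 3 (chr3:28390237-28390472). The next 3 members lay 18, 24 and 40 bp away. Just outside the rule, the RUNX1 promoter peaks with the shortest BRG1 overlap shared 1 bp on chromosome 6 (chr6:34204363-34204537) and 4 bp on chromosome 3 (chr3:49377723-49378100), and the next 3 shared 7, 10 and 15 bp. Members and excluded peaks met without a gap at the boundary.

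RUNX1 promoter peaks without BRG1 were narrower than those with BRG1. Their median width was 361 bp (quartiles 224 and 548 bp), beside 402 bp for all RUNX1 peaks. The smallest width in the RUNX1 list, 175 bp, was found for 290 members (6.05%), close to the 5.80% of all RUNX1 peaks. RUNX1 promoter peaks with BRG1 had a median of 503 bp (349 and 713 bp), and RUNX1 peaks off H3K4me3 without BRG1 had one of 344 bp (221 and 516 bp). Of the members, 16.6% were under 200 bp and 5.09% reached 1000 bp, against 5.92% and 10.1% of the promoter peaks with BRG1. Over all RUNX1 peaks these shares were 14.0% and 6.88%. The rule asks for no BRG1 overlap anywhere in the peak, and its part in the difference in width was not tested.

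**Figure D1:**
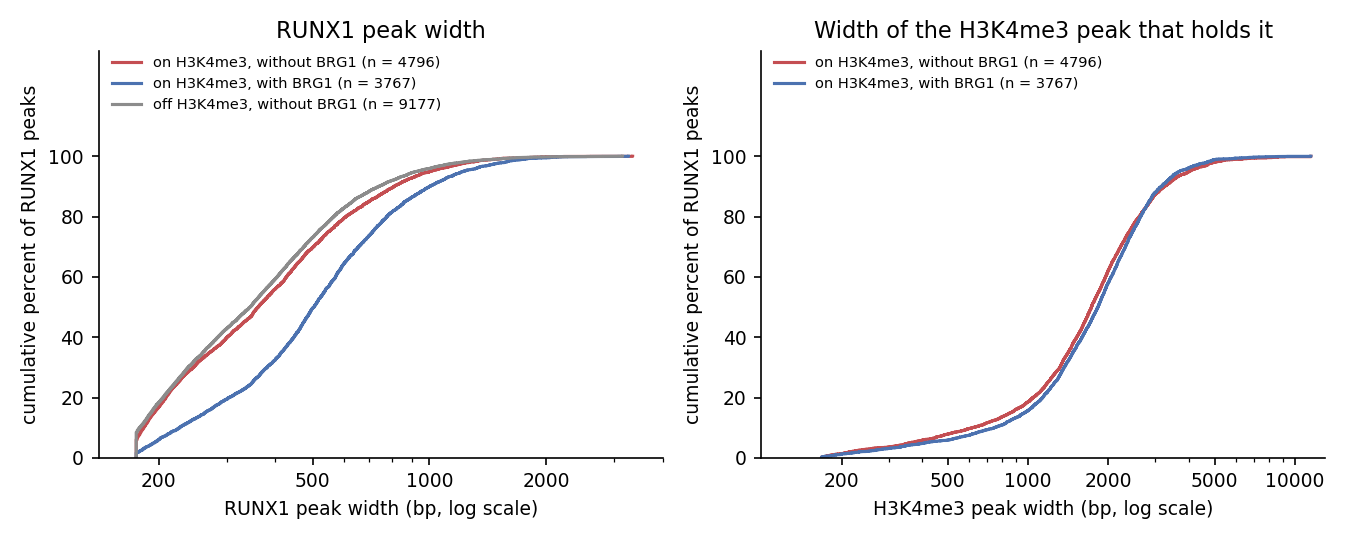
Cumulative percent of RUNX1 peaks (y axis) by RUNX1 peak width and by the width of the H3K4me3 peak that holds them (x axes, bp on a log scale), for members (red), RUNX1 promoter peaks with BRG1 (blue) and RUNX1 peaks off H3K4me3 without BRG1 (grey, left panel only). The RUNX1 medians are 361, 503 and 344 bp, while the 2 H3K4me3 curves lie close together, with medians of 1727 and 1827 bp.

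The promoters themselves differed little in size. The H3K4me3 peak with the largest overlap, called the host here, had a median width of 1727 bp for members (quartiles 1183 and 2395 bp) and 1827 bp for RUNX1 promoter peaks with BRG1 (1258 and 2463 bp). The 4796 members fell on 4177 hosts, which were 32.5% of all H3K4me3 peaks. A single member was the rule: 3641 hosts held 1 member, 467 held 2, 60 held 3 and the remaining hosts held 4 to 6. Neighbouring members of the same host had midpoints a median of 704.5 bp apart (quartiles 470 and 1101 bp, n = 619 pairs).

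Most members sat within the promoter mark. Of all members, 3444 lay wholly inside their host (71.8%, 70.5 to 73.1), 1041 crossed a host edge with the midpoint still inside (21.7%, 20.5 to 22.9), and 311 had the midpoint outside (6.48%, 5.80 to 7.22). For RUNX1 promoter peaks with BRG1 the share wholly inside was 66.7% (65.2 to 68.2). The difference was 5.07 percentage points (Newcombe interval 3.10 to 7.04). The peaks with BRG1 were also wider, and the part of width in this difference was not tested. At least 50% of the width lay on H3K4me3 in 93.5% of members.

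Members were spread over the promoter and not gathered at its centre. On a scale where the host centre is 0 and its edge 1, the median offset of the member midpoint was 0.472 (quartiles 0.237 and 0.724), and that of RUNX1 promoter peaks with BRG1 was 0.502 (0.258 and 0.735). In base pairs the median distance from the host centre was 354 bp for members and 397 bp for the others. Offsets of at most 0.2 were found in 20.8% of members and 18.9% of the promoter peaks with BRG1, and offsets over 0.8 in 18.4% and 19.1%. Strand and transcription start were not used, so the 2 sides of a promoter are not told apart.

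**Figure D2:**
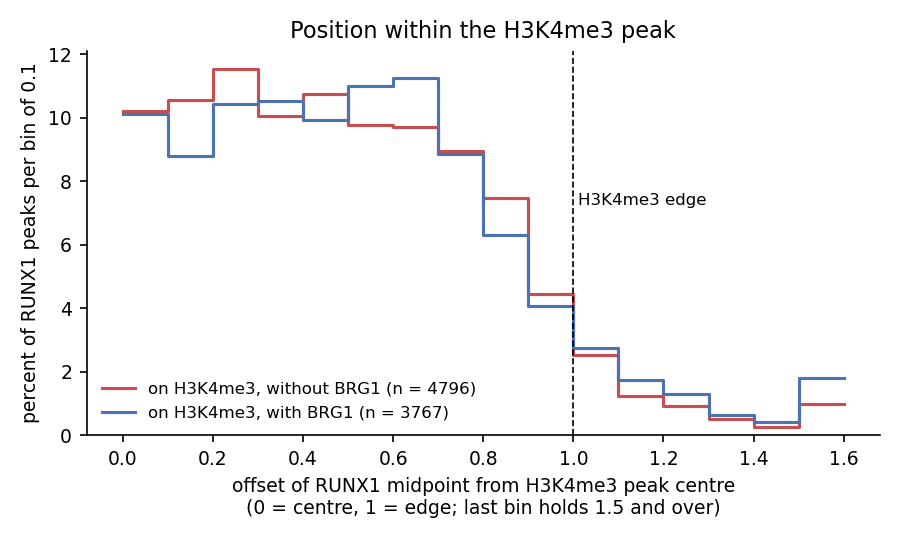
Percent of RUNX1 peaks in bins of 0.1 (y axis) by the offset of their midpoint from the centre of the H3K4me3 peak (x axis, 0 at the centre and 1 at the edge, dashed line), for members (red) and RUNX1 promoter peaks with BRG1 (blue). Both lines are nearly level from the centre outward and drop towards the edge, with medians of 0.472 and 0.502.

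Most members were far from any called BRG1 peak. The median gap to the nearest BRG1 peak was 59452 bp (quartiles 14028 and 165769 bp). A gap over 10 kb was found for 3759 members (78.4%), one over 100 kb for 1780 (37.1%) and one over 1 Mb for 112 (2.34%). RUNX1 peaks off H3K4me3 without BRG1 had a median gap of 54428 bp, with 80.4% over 10 kb and 34.7% over 100 kb.

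A smaller group stood beside BRG1. Of the members, 562 (11.7%, 10.8 to 12.7) had a BRG1 peak within 1 kb, against 4.81% (4.38 to 5.26) of the RUNX1 peaks off H3K4me3 without BRG1. For 465 of these 562 members (82.7%, 79.4 to 85.8) the nearest BRG1 peak touched the same host, and for 497 (88.4%, 85.5 to 91.0) it overlapped another RUNX1 peak. These near members were narrower than the rest, at 274 bp in the median against 377 bp. Their hosts were wider, at 2089 bp in the median against 1688 bp. Counted by promoter, 587 members (12.2%, 11.3 to 13.2) had a BRG1 peak elsewhere on an H3K4me3 peak that they overlapped. The hosts of the other members held no called BRG1 peak.

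**Figure D3:**
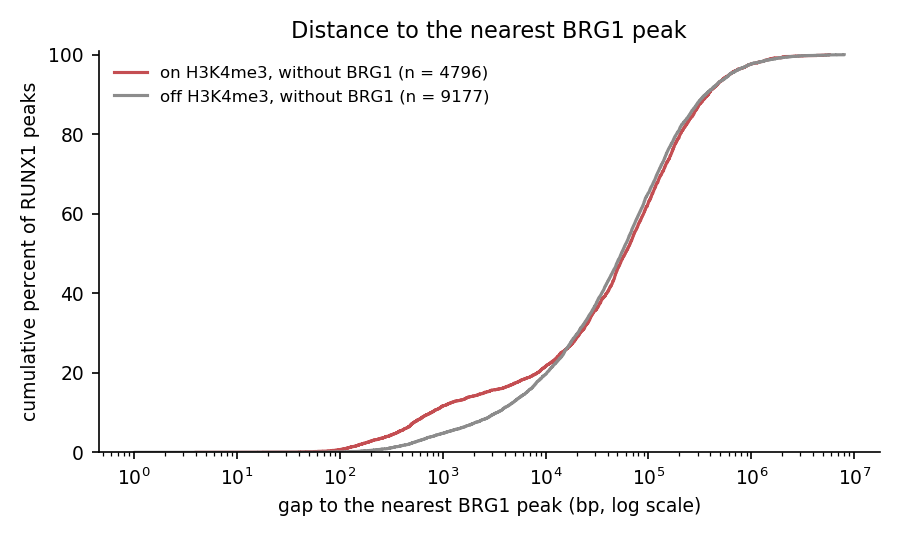
Cumulative percent of RUNX1 peaks (y axis) by the gap to the nearest BRG1 peak (x axis, bp on a log scale), for members (red) and RUNX1 peaks off H3K4me3 without BRG1 (grey). The curves nearly meet above 10 kb, and the members lie higher below it, with 11.7% against 4.81% within 1 kb.

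The members farthest from BRG1 lay on chromosomes X, 9 and Y. A pair on 1 host on chromosome X (chrX:84258934-84259111 and chrX:84258548-84258787) was 5743732 and 5743346 bp from BRG1. DMSO H3K27ac covered both fully. ACBI H3K27ac covered 110 of the 178 bp of the first and none of the 240 bp of the second. The third, on chromosome 9 (chr9:27572669-27574360), was 5450743 bp away, and a pair on chromosome Y (chrY:21729790-21729964 and chrY:21729032-21729626) was 5277062 and 5276304 bp away. The chromosome Y pair was fully covered in DMSO and had no cover in ACBI.

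The share of RUNX1 promoter peaks that lacked BRG1 varied by chromosome. Among the 23 chromosomes with at least 50 members it was highest on X, at 71.4% (65.1 to 77.2; 165 members), followed by chromosome 15 at 65.7% (59.6 to 71.6) and chromosome 6 at 62.0% (57.4 to 66.3). It was lowest on chromosome 20, at 43.6% (37.3 to 50.1; 106 members). The intervals of X, 15 and 6 overlap one another, and that of chromosome 20 lies below all 3. Members on X were also farther from BRG1, with a median gap of 167736 bp.

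In DMSO nearly all members lay in H3K27ac. Of the members, 4578 overlapped a DMSO H3K27ac peak (95.5%, 94.8 to 96.0), where the background over all RUNX1 peaks was 83.8%. The share was 96.9% (96.3 to 97.4) for RUNX1 promoter peaks with BRG1 and 71.0% (70.0 to 71.9) for RUNX1 peaks off H3K4me3 without BRG1. Members minus promoter peaks with BRG1 came to -1.47 points (-2.27 to -0.65). The mark covered 3954 members over their whole width (82.4%, 81.3 to 83.5), beside 69.3% of all RUNX1 peaks. The 4578 members lay in 3870 separate DMSO peaks. The mark covered 92.1% of the summed length of members and 86.6% of that of their hosts.

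The 218 members outside DMSO H3K27ac were mostly on small promoters. Their hosts had a median width of 1048 bp, and their own median was 278 bp. H3K27ac lay on another part of the host for 102 of the 218, and the median gap to the nearest DMSO peak was 746 bp. The widest member outside both H3K27ac lists was on chromosome 1 (chr1:161697046-161697887, 842 bp), 282 bp from a DMSO peak and 21306 bp from an ACBI peak. The second, on chromosome 17 (chr17:42200788-42201605, 818 bp), was 17733 bp from a DMSO peak, and the third, on chromosome 11 (chr11:102979840-102980650, 811 bp), was 16551 bp from one. The fourth, on chromosome 2 (chr2:175201994-175202762), was 52016 bp from one, and the fifth, on chromosome 6 (chr6:32145478-32146218), only 66 bp.

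In ACBI the mark was called at fewer members. Of the 4796, 3954 overlapped an ACBI H3K27ac peak (82.4%, 81.3 to 83.5), beside 64.3% of all RUNX1 peaks. The share of promoter peaks with BRG1 was 75.1% (73.7 to 76.5), which put members 7.32 points higher (5.57 to 9.07). Both conditions held 3941 members, DMSO alone held 637, ACBI alone held 13 and neither held 205. The number in ACBI and the number fully covered in DMSO are both 3954, but the sets differ, since 13 of the members in ACBI lay outside DMSO H3K27ac altogether. Those fully covered in ACBI numbered 2998 (62.5%, 61.1 to 63.9), beside 46.8% of all RUNX1 peaks. Their share exceeded that of the promoter peaks with BRG1 by 13.6 points (11.5 to 15.7). In DMSO the fully covered share was already higher for members, at 82.4% against 78.8% of the promoter peaks with BRG1. The peaks with BRG1 were also wider. In each bin of RUNX1 width the share in ACBI H3K27ac was higher for members. Under 200 bp it was 77.3% against 73.5%, and at 1000 bp or more 97.1% against 90%. The part of width in the differences in full cover was not tested. The ACBI list as a whole was shorter than the DMSO list. Treatment and a difference in depth between the 2 libraries cannot be told apart as the source of that.

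A member in DMSO H3K27ac that overlapped no ACBI peak is called lost, which says that no peak was called there and not that the mark was absent. Of the 4578 members in DMSO H3K27ac, 637 were lost (13.9%, 12.9 to 15.0), against a background of 23.9% over all RUNX1 peaks. RUNX1 promoter peaks with BRG1 were lost in 825 of 3651 cases (22.6%, 21.2 to 24.0), and RUNX1 peaks off H3K4me3 without BRG1 in 2170 of 6512 (33.3%, 32.2 to 34.5). RUNX1 peaks off H3K4me3 with BRG1 were lost in 349 of 1926 (18.1%, 16.4 to 19.9). On H3K4me3 the lost share was thus lower without BRG1 than with it, and off H3K4me3 it was higher without BRG1. The loss was lower by 8.68 points at members than at promoter peaks with BRG1 (difference -8.68, Newcombe interval -10.4 to -7.0). Weighted to the same RUNX1 widths, the shares were 13.2% and 23.5%. With the DMSO list cut to its 52967 widest peaks, as many as the ACBI list holds, 12.0% of members were lost and the difference was -8.32 points (-9.97 to -6.69). Of the 218 members outside DMSO H3K27ac, 13 overlapped an ACBI peak (5.96%, 3.21 to 9.98), beside 3.44% of all RUNX1 peaks.

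**Figure D4:**
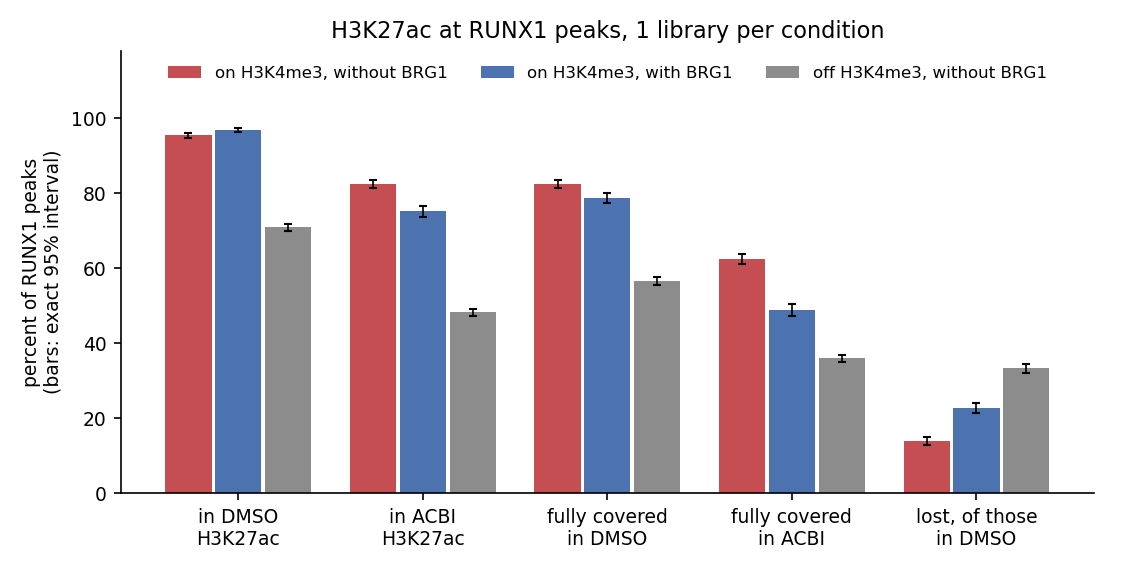
Percent of RUNX1 peaks (y axis) in or fully covered by H3K27ac in each condition, and lost in ACBI, for members (red), RUNX1 promoter peaks with BRG1 (blue) and RUNX1 peaks off H3K4me3 without BRG1 (grey), with exact 95% intervals over peaks. Members and promoter peaks with BRG1 are nearly level in DMSO, at 95.5% and 96.9%, and apart in ACBI, at 82.4% and 75.1%.

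The lower loss at members than at promoter peaks with BRG1 was found on each chromosome ranked. Chromosomes come from the same libraries and are not replicates. In each of the 23 chromosomes with at least 50 members, a smaller share of members than of promoter peaks with BRG1 was lost. The intervals of these shares lay apart only on chromosomes 1, 7, 17 and 19 and overlapped on the others. On chromosome 10, for example, they were 14.4% (9.52 to 20.5) for members and 17.1% (11.7 to 23.6) for promoter peaks with BRG1. The highest loss of members was on chromosome 19, at 23.0% (18.9 to 27.6; 87 of 378), where 43.8% (37.7 to 49.98) of the promoter peaks with BRG1 and 33.7% of all RUNX1 peaks were lost. Chromosome X followed with 20.1% (14.2 to 27.2), and the lowest was chromosome 18 with 6.06% (1.68 to 14.8; 4 of 66). Hosts on chromosome 19 were narrow, with a median of 1477 bp, and any part of host width in the loss there was not tested. Without chromosome 19, an alternative chosen after seeing the data, 13.1% of members were lost and the difference was -7.84 points.

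Loss followed the size of the promoter and the place within it. On hosts under 500 bp, 27.6% of members were lost (22.8 to 32.9), and on hosts of 3000 bp or more 6.51% (4.67 to 8.79). For promoter peaks with BRG1 these shares were 42.5% (35.4 to 49.8) and 10.4% (7.72 to 13.6). Members with an offset of at most 0.2 were lost in 10.1% of cases (8.29 to 12.2), those between 0.8 and 1 in 22.6% (19.02 to 26.4) and those with the midpoint outside the host in 27.3% (22.0 to 33.1). By own width, 18.0% (15.3 to 21.0) of members under 200 bp and 2.87% (1.16 to 5.82) of members of 1000 bp or more were lost. Among the width bins, members and promoter peaks with BRG1 came nearest for the narrowest peaks, at 18.0% and 23.0% (17.5 to 29.2), where the intervals overlap.

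**Figure D5:**
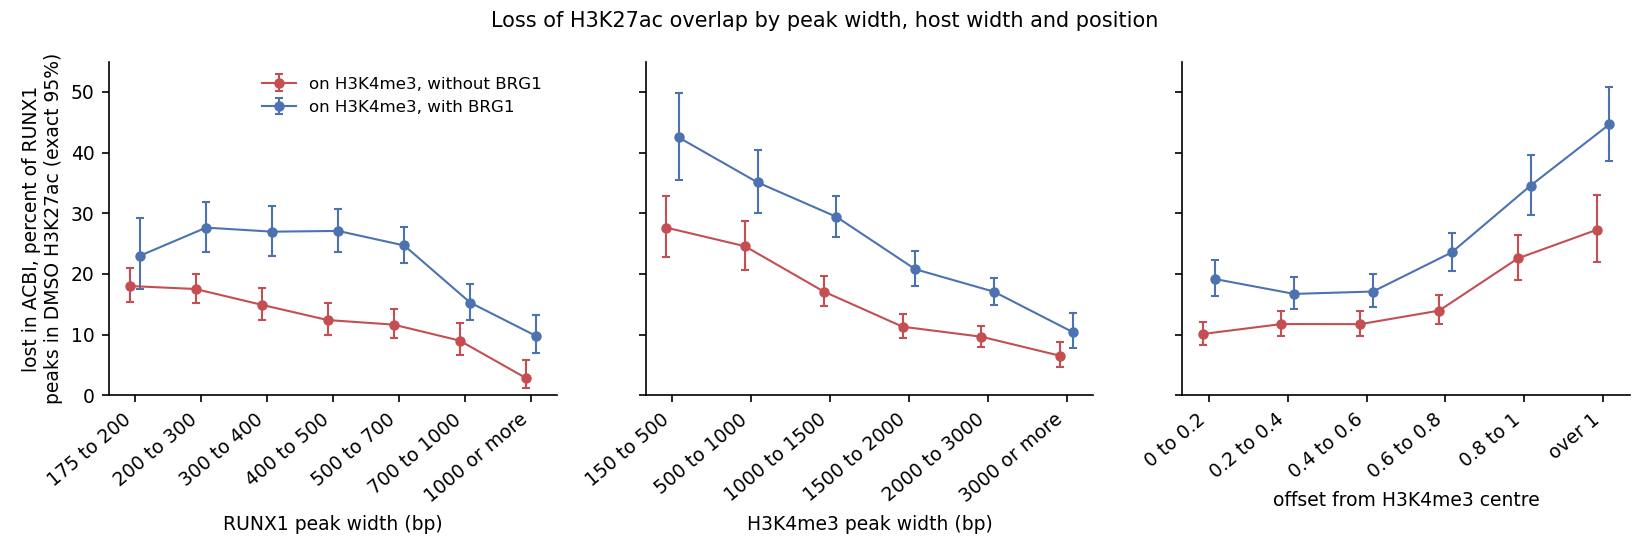
Percent of RUNX1 peaks in DMSO H3K27ac that were lost in ACBI (y axis, points with exact 95% intervals) by RUNX1 width, H3K4me3 width and offset from the H3K4me3 centre (x axes), for members (red) and RUNX1 promoter peaks with BRG1 (blue). The red points lie below the blue ones in every bin, and go from 27.6% on the narrowest to 6.51% on the widest H3K4me3 peaks and from 10.1% at the centre to 27.3% outside the edge.

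The width of the H3K27ac peak over a member separated kept from lost members as well. Under a DMSO peak of less than 1000 bp, 41.4% of members were lost (37.2 to 45.8; 217 of 524), and under one of 10 kb or more 1.99% (0.81 to 4.07; 7 of 351). The corresponding shares of promoter peaks with BRG1 were 63.1% (58.3 to 67.7) and 9.16% (4.82 to 15.5). Lost members had a median width of 303 bp and a DMSO H3K27ac peak of 1356 bp over them, and kept members 378 and 2472 bp. Hosts of lost members had a median width of 1357 bp and those of kept members 1819 bp. The median offset was 0.583 for lost and 0.446 for kept members. An overlap of 1 bp was enough to count a member as kept.

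The loss varied little with distance to BRG1. Members up to 500 bp from a BRG1 peak were lost in 16.9% of cases (13.0 to 21.4), members 10 to 50 kb away in 13.6% (11.7 to 15.8) and members over 100 kb away in 14.1% (12.5 to 15.9). Within 1 kb the share was 16.4% (13.3 to 19.8), and beyond it 13.6% (12.5 to 14.7). These intervals overlap.

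On promoters that held both kinds of RUNX1 peak, the lost shares lay close together. There were 451 such hosts, with 518 members on them. In 427 hosts the widest member and the widest RUNX1 peak with BRG1 were both in DMSO H3K27ac. In 346 of these both overlapped an ACBI peak, in 28 the member alone did, in 26 the peak with BRG1 alone did, and in 27 neither did. The lost shares were 12.4% for the members and 12.9% for the peaks with BRG1. Both peaks of a pair lie on the same host and can lie under the same H3K27ac peak. Their calls are therefore linked, and close shares are in part built into the comparison. With every RUNX1 peak on these hosts counted, the difference was -2.73 points (-7.07 to 1.56), against -8.68 over all hosts, and its interval includes 0. The share of the peak covered in ACBI was higher at the member in 124 pairs, higher at the peak with BRG1 in 69 and equal in 234. The members of these pairs were narrower, at 297 bp in the median against 563 bp.

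For most lost members the whole promoter was without called H3K27ac in ACBI. Of the 637 lost members, 383 (60.1%, 56.2 to 64.0) lay on hosts with no ACBI H3K27ac cover, and 254 (39.9%, 36.0 to 43.8) on hosts that were still covered in part. Promoter peaks with BRG1 gave 60.1% and 39.9% too (496 and 329 of 825). An ACBI peak lay within 1 kb of 290 lost members, and none within 10 kb of 204.

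Covered length was compared over all peaks of a class, in DMSO H3K27ac or not. A peak outside DMSO H3K27ac has no cover to lose, and 95.5% of members but 83.8% of all RUNX1 peaks were inside it. The backgrounds given here are therefore on an unlike base. Of all members, 3111 had the same covered length in both conditions (64.9%), 1500 had less in ACBI (31.3%, 30.0 to 32.6; background 36.1%) and 185 had more (3.86%, 3.33 to 4.44; background 2.98%). Less cover in ACBI was found for 46.6% (45.0 to 48.2) of the promoter peaks with BRG1. For RUNX1 peaks off H3K4me3 without BRG1 the share was 34.6% (33.6 to 35.6). In DMSO H3K27ac lay 96.9% and 71.0% of these classes. Lost shares count only those peaks, so the order of the classes cannot be compared between the measures. Summed over members, the covered length was 1948 kb in DMSO and 1622 kb in ACBI of 2114 kb, or 92.1% and 76.7%. Over promoter peaks with BRG1 it was 91.5% and 65.2%. Over the hosts of members it was 86.6% and 70.1%, and over the hosts of promoter peaks with BRG1 84.7% and 61.9%. By member, the host had less cover in ACBI in 64.2% of cases (62.8 to 65.5) and more in 13.6% (12.6 to 14.6). For promoter peaks with BRG1 these shares were 75.05% (73.6 to 76.4) and 11.8% (10.8 to 12.9).

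At kept members the H3K27ac peak was mostly narrower in ACBI. For the 3941 members in both lists, the H3K27ac peak over the member had a median width of 2472 bp with DMSO and of 1787 bp with ACBI. It was narrower in ACBI for 78.7% (77.3 to 79.9), beside 82.2% of all RUNX1 peaks in both. The median ratio of ACBI to DMSO width was 0.762 (quartiles 0.549 and 0.963). It was 0.741 (0.508 and 0.935) for the 2826 promoter peaks with BRG1 in both lists. The edge of the mark also lay nearer: the member midpoint was a median of 732 bp from the nearest H3K27ac edge with DMSO and 503.5 bp with ACBI. The offset from the centre of the H3K27ac peak, on the same scale from 0 to 1, was 0.380 in DMSO and 0.429 in ACBI. Over the whole lists the H3K27ac peaks were not narrower in ACBI, with median widths of 741 bp in DMSO and 754 bp in ACBI. Treatment and read depth cannot be told apart as the source of the narrower peaks at kept members.

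The widest members kept their mark. The widest, on chromosome 9 (chr9:132649194-132652539, 3346 bp), straddled the edge of a 4169 bp host, 2214 bp from BRG1. H3K27ac covered it fully in both conditions, under a peak of 37136 bp with DMSO and 28280 bp with ACBI. The second, on chromosome 17 (chr17:80259247-80261851, 2605 bp), enclosed its 596 bp host, and the third was on chromosome 2 (chr2:69870338-69872884, 2547 bp). Both were fully covered in both conditions. The fourth, on chromosome 4 (chr4:141071279-141073497), was covered over 2219 bp in DMSO and 1860 bp in ACBI. At the fifth, on chromosome 22 (chr22:47008550-47010722), the H3K27ac peak measured 11633 bp in DMSO and 23663 bp in ACBI, so that it was wider in ACBI.

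The widest lost members differed in their distance to the nearest ACBI H3K27ac peak. The widest was the chromosome 9 site 5450743 bp from BRG1 named above: DMSO H3K27ac covered 1280 of its 1692 bp, and the nearest ACBI peak was 615137 bp away. On chromosome 17 (chr17:62339839-62341172), 1150 of 1334 bp were covered in DMSO, with the nearest ACBI peak 48479 bp away. On chromosome 19 (chr19:41768975-41770277), 669 of 1303 bp were covered in DMSO and an ACBI peak came within 121 bp. The fourth, on chromosome 10 (chr10:104261677-104262856), had 355 of 1180 bp covered in DMSO. The fifth, on chromosome 16 (chr16:56553351-56554512), had 1046 of 1162 bp covered in DMSO and its nearest ACBI peak 40787 bp away. The chromosome 19 and chromosome 16 sites thus lie near and far from remaining H3K27ac.

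The promoters with the most members were wide, and 3 hosts tied at 5 members, of which 2 are given. The first, on chromosome 17 (chr17:56406262-56417737, 11476 bp), held 6 members, together with 1 BRG1 peak and 1 RUNX1 peak on it. DMSO H3K27ac covered the host fully and ACBI H3K27ac covered 84.8% of it. The member at its low-coordinate end (from 56405870) kept 28.0% of its width under ACBI H3K27ac, the next (from 56406976) kept none, and the other 4 kept all. A host on chromosome 2 (chr2:43446678-43455253, 8576 bp) held 5 members and 1 BRG1 peak, and another, on chromosome 6 (chr6:41904090-41910441, 6352 bp), held 5 members and no BRG1 peak. H3K27ac covered both hosts and all their members fully in both conditions.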

How the data were processed

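CUT&RUN peak lists of 5 of the 9 samples were used. The 4 control libraries were not analysed here. The authors deposited each list as chromosome, start, end and peak name, with no score, fold or read count. The submitters' processing notes name hg19, MACS2 and SEACR. Per the file headers, MACS2 made the RUNX1 list, and the H3K27ac lists hold broad peaks with q under 0.01. The sources used here do not give the aligner, the use of controls or the other thresholds. A shallower library can give fewer and narrower peaks.

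Overlaps, distances and covered lengths were computed in Python 3.11.15 (numpy 2.4.6, pandas 2.3.3, scipy 1.17.1, matplotlib 3.10.9). They were checked on 3000 simulated peaks, with 0 values differing from the truth. The overlap calls were also compared with bedtools 2.31.1 for 4 lists, with 0 RUNX1 peaks differing. The members, the strata and the rule for named sites (5 per extreme, 3 hosts) were chosen with earlier results of these data known. Alternatives included 50% cover, a distance of 1 kb, a minimum width of 500 bp and weighting over 10 width bins. Without an hg19 genome or annotation, the planned motif counts and gene lists were not made.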

Additional observations from a re-analysis of the deposited data

How the results depend on the processing

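No paired analysis was possible because each group is 1 library. Read depth, peak strength and the spread between cultures are not in the lists. A peak list limits what can be seen to whether a peak was called. Of 88 recomputed values, 55 kept close to the reported value (inside its 95% interval, or within 1.5 times for a count) and 33 did not. The difference in loss between members and promoter peaks with BRG1 kept its sign in each, but on shared hosts its interval includes 0. Weighting by host width or by H3K27ac peak width, leaving out chromosome 19 and using shared hosts were chosen after seeing the data.

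With RUNX1 peaks of at least 500 bp only, there were 1450 members with a median width of 696.5 bp and a median BRG1 gap of 65453 bp. Of these 97.5% were in DMSO and 88.6% in ACBI H3K27ac, 9.26% were lost, and the median host cover was 97.7% in DMSO and 80.1% in ACBI. With 50% of the RUNX1 peak on H3K4me3, the median offset was 0.442, and 96.2% were in DMSO and 83.8% in ACBI. Without BRG1 within 1 kb, the median width was 377 bp and the median gap 75279 bp. Without BRG1 on any H3K4me3 peak that the member overlapped, these were 376 and 76090 bp. With 1 member per host the median width was 388 bp.

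With 50% of the RUNX1 peak under H3K27ac, 92.6% of members were in DMSO, 75.6% in ACBI and 19.01% were lost, and the difference in loss was -12.5 points. With H3K27ac peaks under 500 bp left out, the shares were 93.1%, 78.4% and 16.3%. With equal numbers of the widest H3K27ac peaks, 92.1% were in DMSO and 12.0% were lost. Accepting an H3K27ac peak within 1 kb gave 97.9%, 89.5% and 8.69%, with a difference of -4.71 points. Weighted to RUNX1 widths, 83.5% were in ACBI. On shared hosts 11.9% were lost, with a difference of -2.73 points. With H3K4me3 peaks within 500 bp merged, 14.1% of members had BRG1 on an H3K4me3 peak that they overlapped.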
